A study of Drosophila melanogaster with 3 samples.

Results

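The tetraspanin genes of Drosophila melanogaster were examined for chromatin binding of fd64A, a forkhead transcription factor that the annotation lists as FoxL1. Membership was set by name, as the protein-coding genes whose symbol is Tsp followed by a digit. Of the 13945 protein-coding genes on the 6 chromosome arms, 34 met this rule. The family itself was chosen with earlier results of these data known. Chromatin immunoprecipitation sequencing (ChIP-seq) had been done on whole embryos of 8 to 14 hours, both sexes pooled, from a single transgenic strain whose fd64A is fused to green fluorescent protein (GFP) at the C terminus. The labels give 1 group of 3 biological replicates, each with 1 technical replicate, and neither an untagged line nor a second condition was analysed here. Because whole embryos were used, binding in a few cells and weak binding in many cells cannot be told apart, and the cell type behind a peak is unknown.

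Tetraspanins are small proteins that cross the membrane several times and gather other membrane proteins, such as integrins and proteases, into microdomains. Some are known in flies for a particular partner. Tsp3A, Tsp26A and Tsp86D promote Notch signalling through the protease Kuz, and Tsp2A builds the smooth septate junctions of the gut together with mesh, Ssk and hoka. Forkhead factors bind DNA through a winged-helix domain that prefers words close to GTAAACA.

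Peaks were taken from the list of 2919 peaks that the authors thresholded on the irreproducible discovery rate (IDR), a measure of how well replicates rank the same peaks. A gene was counted where a summit, the position of highest enrichment within a peak, lay in its span, which runs from 2000 bp upstream of its most upstream transcription start site (TSS) to its end. An IDR summit lay in the span of 10 of the 34 tetraspanin genes (29.4%). The DNA around 4 of these summits is shown because it spans the range seen among the genes, with several forkhead words, a word on the summit, none, or a word farther off. Each window holds 75 bp to either side of the summit on the forward strand of the RefSeq release 6 assembly, and capitals mark the forkhead words on either strand, which are GTAAACA, its variant GTAAATA, the word ATAAACA and its variant ATAAATA. The windows are chr3L:8925816-8925966 in an intron of Tsp66E, chrX:6074983-6075133 upstream of Tsp5D, chr3R:26963807-26963957 in an intron of Tsp97E and chr2L:8938107-8938257 in an intron of Tsp29Fb.
Tsp66E: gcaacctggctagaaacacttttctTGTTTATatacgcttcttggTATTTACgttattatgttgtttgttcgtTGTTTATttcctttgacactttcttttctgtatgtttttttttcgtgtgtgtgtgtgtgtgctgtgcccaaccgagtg
Tsp5D: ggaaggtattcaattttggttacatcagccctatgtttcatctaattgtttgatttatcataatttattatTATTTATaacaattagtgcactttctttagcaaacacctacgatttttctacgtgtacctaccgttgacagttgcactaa
Tsp97E: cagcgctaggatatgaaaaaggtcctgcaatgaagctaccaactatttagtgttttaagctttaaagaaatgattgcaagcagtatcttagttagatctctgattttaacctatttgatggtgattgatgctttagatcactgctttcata
Tsp29Fb: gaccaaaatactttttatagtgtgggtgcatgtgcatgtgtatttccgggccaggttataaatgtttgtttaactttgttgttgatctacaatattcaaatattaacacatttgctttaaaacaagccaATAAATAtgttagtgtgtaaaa

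The Tsp66E window holds 3 forkhead words, all on the reverse strand, with positions counted along the forward strand. The word ATAAACA begins 50 bp before the summit, GTAAATA begins 30 bp before it, and a second ATAAACA covers the summit itself, at bases -2 to 4. In the Tsp5D window 1 word, ATAAATA on the reverse strand, covers the summit at bases -4 to 2. The Tsp97E window has no such word, and that of Tsp29Fb has ATAAATA at 54 to 60 bp beyond the summit.

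The share of tetraspanin genes with an IDR summit, 10 of 34 or 29.4%, stood beside 7 of 31 (22.6%) for the genes whose symbol is Rab followed by a digit, another membrane family of like size, and 16.9% for all protein-coding genes (2362 of 13945). Of the Rab-symbol genes, 3 are regulators of Rab proteins rather than Rab proteins. The comparison is descriptive, since neighbouring genes share spans and peaks and the design has no second condition, so no test was made. To see the spread between replicates, the 2919 strongest peaks of each replicate by the authors' signal value are called its leading peaks, a number set to the length of the IDR list. For replicates 1, 2 and 3, a leading summit lay in 8, 11 and 11 tetraspanin genes, which is 23.5%, 32.4% and 32.4% of the 34. The same shares were 22.6%, 29.0% and 25.8% for the Rab genes and 16.9%, 17.2% and 16.2% for all protein-coding genes. The mean was 29.4% ± 5.09 for tetraspanin genes, 25.8% ± 3.23 for Rab genes and 16.8% ± 0.483 for all protein-coding genes (SD, n = 3 replicates). In each of the 3 replicates the tetraspanin share was thus above that of all protein-coding genes, while the ranges of the tetraspanin and Rab shares overlapped.

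The stricter counts differed in how far they stood from the background. A leading summit in all 3 replicates was found in 7 tetraspanin genes (20.6%), 6 Rab genes (19.4%) and 11.2% of all protein-coding genes. With an IDR summit within 500 bp of the gene's own TSS the counts were 6 tetraspanin genes (17.6%), 2 Rab genes (6.45%) and 9.34% of all protein-coding genes. Among the 1459 strongest IDR peaks, however, only 4 tetraspanin genes held a summit (11.8%), beside 5 Rab genes (16.1%) and 9.82% of all protein-coding genes, so the tetraspanin share was near the background there. The relaxed pooled list of 30000 peaks gave little contrast, with a summit in 28 tetraspanin genes (82.4%), 27 Rab genes (87.1%) and 68.5% of all protein-coding genes.

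**Figure D1:**
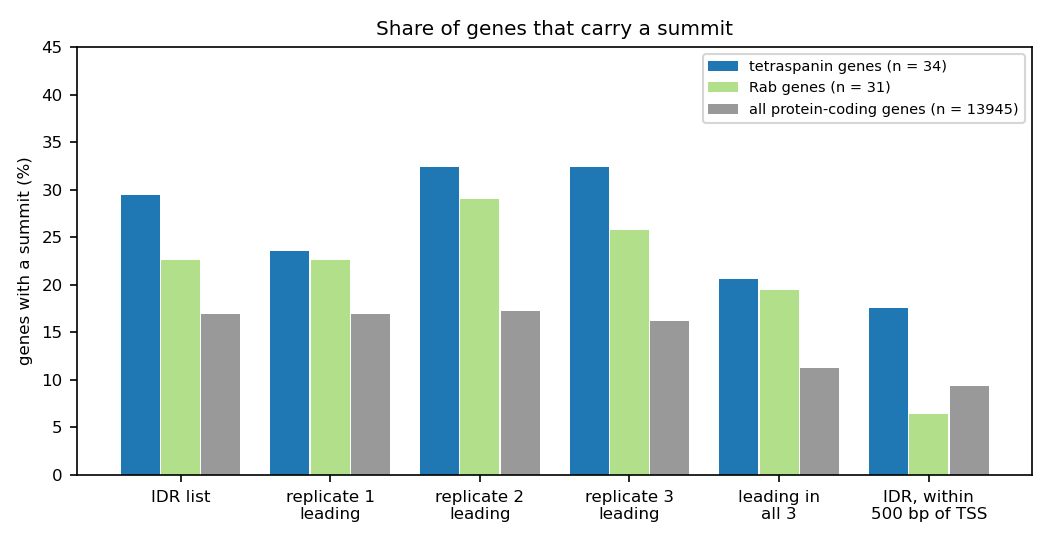
Share of genes (%, vertical axis) with a summit in their span, for tetraspanin genes (n = 34), Rab genes (n = 31) and all protein-coding genes (n = 13945), in the IDR list, in the leading peaks of each replicate, in the leading peaks of all 3, and in the IDR list within 500 bp of the gene's own TSS. Tetraspanin bars run from 17.6% to 32.4% and stand above the bars of all protein-coding genes in each of the 6 measures; bars are single shares without error.

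Span length moved with the result. Tetraspanin genes with an IDR summit had a median length of 4183 bp (1981 to 19567 bp), and those without had one of 1922.5 bp (1001 to 13665 bp). Among all protein-coding genes the median was 5450.5 bp for those with an IDR summit and 2166 bp for all, with or without a summit. It was not computed for those without. Of the 17 tetraspanin genes with spans at or under the family's median of 4211.5 bp, 1 had an IDR summit (5.88%, against 8.72% of all protein-coding genes with spans of that size). Of the 17 with longer spans, 9 had an IDR summit (52.9%, against 25.5% of all protein-coding genes with longer spans). The higher share of the family therefore lay in its longer genes. Over the merged spans, 175 kb in all, tetraspanin genes held 6.27 IDR summits per 100 kb, against 2.59 per 100 kb in the spans of all protein-coding genes. These densities cover unlike territory, since all protein-coding genes run up to 1965857 bp and the upstream 2000 bp weighs less in long genes. The part of this in the difference was not tested. The leading peaks gave 5.7, 6.84 and 7.41 summits per 100 kb of tetraspanin span in replicates 1, 2 and 3, averaging 6.65 ± 0.871 (SD, n = 3). The density of leading peaks was not computed for all protein-coding genes. Keeping the IDR summits that leading peaks of both other replicates overlapped, the 11 tetraspanin summits became 7 without replicate 2, or 3.99 per 100 kb, against 1.81 per 100 kb for all protein-coding genes under the same filter. Without replicate 1 or 3 the value was 4.56 per 100 kb for tetraspanin genes in each case, against 1.68 and 1.72 for all protein-coding genes.

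The 10 genes held 11 distinct IDR summits. Of these, 6 lay within 500 bp of a TSS, here called promoter (54.5%, against 42.1% of all 2919 IDR summits), and the other 5 in introns. The shares cover unlike territory. Tetraspanin summits lie by rule in a gene or its upstream 2000 bp, while 2558 of the 2919 lay in the span of any protein-coding gene. The part of this in the difference was not tested. The nearest protein-coding TSS was that of the tetraspanin gene for 8 of the 11, counting that at Tsp42Ea, where the TSS of CG30159 was equally near. This share was not computed for summits in the spans of other genes. In strength they were ordinary for the list, with a median rank of 1525 of 2919 and 4 summits among the 1459 strongest. A leading peak overlapped the IDR peak in all 3 replicates for 7 of them (63.6%, against 57.8% of all IDR peaks), in 2 replicates for 2 and in 1 replicate for 2. The summit of the overlapping replicate peak lay within 50 bp of the IDR summit in 22 of 33 cases, with a median distance of 21 bp and a largest of 140 bp.

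The strongest promoter peaks belonged to Tsp42El and Tsp5D. At Tsp42El (FBgn0033134, 2R:7045769-7048538, forward strand) the peak 2R:7045417-7045699 had its summit 233 bp upstream of the TSS and ranked 166 in the IDR list, with a signal of 759. The signal is the authors' own peak strength, whose scale is not stated, and it is used here to rank peaks within a list. The overlapping replicate peaks ranked 164, 240 and 156 in replicates 1, 2 and 3, with signals of 309, 190 and 252, so all replicates placed the site high. No forkhead word lay within 50 bp of it. At Tsp5D (FBgn0029837, X:6069131-6074857, reverse strand) the peak X:6074906-6075172 had its summit 201 bp upstream of the TSS, an IDR rank of 317 and a signal of 593. Its replicate peaks ranked 322, 351 and 332 with signals of 238, 164 and 187, and their summits lay at most 7 bp from the IDR summit. This is the summit covered by the word printed above, and a GATA word (AGATAA or TGATAA) also lay within 50 bp.

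Tsp66E (FBgn0035936, 3L:8912499-8932065, forward strand) was the longest of the 34 tetraspanin genes, at 19567 bp, and alone among the 34 had more than 1 IDR summit. Both summits lay in intron 2, of 13021 bp, in a transcript of 7 exons. The stronger peak, 3L:8925780-8925963, had its summit 13349 bp downstream of the gene's TSS, with IDR rank 642 and signal 426. Its replicate peaks ranked 720, 426 and 1145 with signals of 167, 150 and 104, within the leading peaks of all 3 replicates. The nearest protein-coding TSS was that of CG43783, at 10922 bp. The weaker peak, 3L:8920679-8921082, lay 5010 bp away from it, summit to summit, with IDR rank 2880 and signal 191. It was a leading peak in replicate 1 (rank 2261) and not in replicates 2 and 3 (ranks 3845 and 4570). With a deposited −log10 q-value of 1.27 it was the only summit of the 11 with q not under 0.05, and no forkhead word lay within 50 bp of it.

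The other intronic summits were close to the start of their genes. In Tsp97E (FBgn0039465, reverse strand) the peak 3R:26963680-26964083 had its summit in intron 2, 935 bp downstream of the TSS, at IDR rank 887. Replicate ranks there were 1174, 766 and 1082, with signals of 129, 112 and 108. Replicate 3 had 3 leading summits in the gene's span, and replicates 1 and 2 had 1 each. In replicate 3 the summit at rank 2683 lay 786 bp upstream of the TSS, outside the gene body. The one at rank 2790 lay 734 bp downstream of the TSS, and q was not under 0.05 for either. In Tsp29Fb (FBgn0032075, forward strand) the peak 2L:8938112-8938249 had its summit in intron 2, 792 bp downstream of the TSS, at IDR rank 1514. Replicate ranks were 1948, 2320 and 1241, with signals of 99.8, 66.2 and 100, and the replicate summits lay at most 13 bp from the IDR summit. In Tsp96F (FBgn0027865, reverse strand) the peak 3R:25879351-25879754 had its summit in intron 1, 1874 bp downstream of the TSS, at IDR rank 1525. Its replicate ranks were spread more widely, at 1217, 2847 and 1555, with signals of 127, 59.4 and 90.2. A further leading summit appeared in replicate 1 at 237 bp downstream of the TSS (rank 2250) and another in replicate 2 at 1147 bp (rank 2428), so this gene's summits differed between replicates.

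**Figure D2:**
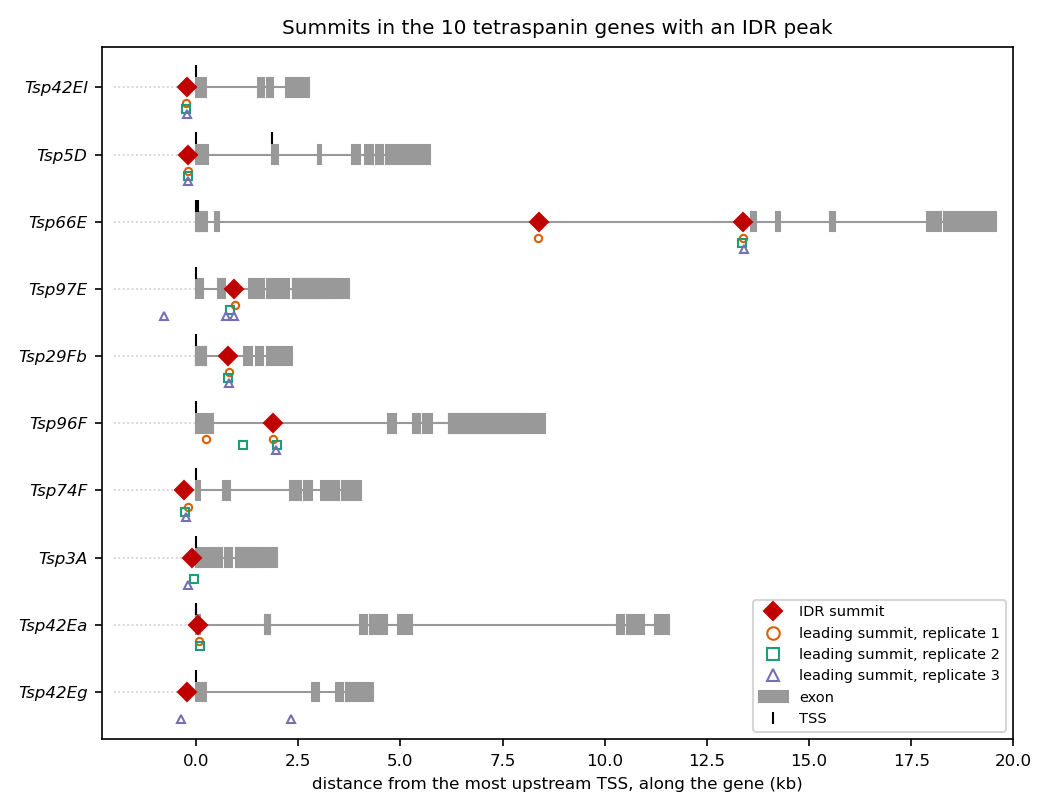
Positions of summits in the 10 tetraspanin genes with an IDR peak, as distance along the gene from its most upstream TSS in kb (horizontal axis), 1 gene per row; diamonds are IDR summits, open symbols the leading summits of replicates 1, 2 and 3, boxes exons and ticks TSSs. In 7 genes all 3 replicates have a leading summit, and Tsp66E stands out with both IDR summits over 8 kb from its TSS.

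The remaining promoter summits ranked lower and varied more between replicates. At Tsp74F (FBgn0036769, reverse strand) the peak 3L:17895951-17896354, 291 bp upstream of the TSS, had IDR rank 1918. Its replicate ranks were 2809, 2139 and 1272, with signals of 82.3, 69.3 and 99.0, so all 3 replicates kept it among the leading peaks. At Tsp3A (FBgn0040334, reverse strand), whose protein acts with Kuz in Notch signalling, the peak X:2619638-2620041 had IDR rank 1983, with replicate ranks of 3218, 1940 and 1160. Replicate 1 fell outside the leading peaks. The summit lay 102 bp upstream of the Tsp3A TSS and 41 bp downstream of the nearer TSS of Seipin, which encodes a protein of lipid droplets, and the peaks cannot say which of these genes the site belongs to. At Tsp42Ea (FBgn0029508, forward strand) the peak 2R:6992529-6992932 had IDR rank 2268, with its summit 50 bp downstream of a TSS of Tsp42Ea and equally far from that of CG30159. Its replicate ranks were 1694, 1615 and 11679, with signals of 108, 79.1 and 38.4. Replicate 3 stood far below the other two, with a −log10 q-value of 0.313 there. At Tsp42Eg (FBgn0033128, forward strand) the peak 2R:7028488-7028891, 221 bp upstream of the TSS, had IDR rank 2674. Its replicate ranks of 3201, 3440 and 2642 made it a leading peak in replicate 3 alone, where its q was not under 0.05.

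The 24 tetraspanin genes without an IDR summit fell into groups by what the longer lists held. None had a leading summit in more than 1 replicate. Tsp42Ed and Tsp42Ee, which lie head to head, shared 2 leading summits of replicate 2 (ranks 2511 and 2657), and Tsp42Eq and Tsp42Er, also head to head, shared 1 of replicate 3 (rank 2853). The other 20 had no leading summit in any replicate, namely Tsp2A, Tsp26A, Tsp29Fa, Tsp33B, Tsp39D, Tsp42A, Tsp42Eb, Tsp42Ec, Tsp42Ef, Tsp42Eh, Tsp42Ei, Tsp42Ej, Tsp42Ek, Tsp42En, Tsp42Eo, Tsp42Ep, Tsp47F, Tsp66A, Tsp68C and Tsp86D. Just under the IDR list, the strongest remaining pooled summit in a tetraspanin span had rank 3349 and a signal of 176, in the shared span of Tsp42Ek and Tsp42El. The weakest inside it was the second Tsp66E summit, at rank 2880 and a signal of 191. Of the 24 genes, 18 had a summit in the relaxed pooled list, at best ranks of 3349 to 27254 with a median of 7975.5. In none of them was the pooled q under 0.05, which the lists fix in advance. The IDR peaks were the 2919 strongest pooled peaks, and only 2784 of them had q under 0.05. A summit with q under 0.05 was present for 5, 2 and 0 of the 24 in replicates 1, 2 and 3. The whole replicate lists differed in the same order, with 4964, 3017 and 1598 peaks of q under 0.05. The part of this in the counts was not tested. The genes counted were Tsp42Ed, Tsp42Ee, Tsp42Ek, Tsp42Eq and Tsp42Er in replicate 1, and Tsp42Ed and Tsp42Ee in replicate 2. All are neighbours on 2R, and the head-to-head pairs shared summits, so the counts cover fewer sites than genes. The same share over all protein-coding genes was not computed. The other 6 genes had no pooled summit, and 1 of them, Tsp42Eb, which lies inside the body of Tsp42Ea, had no summit in any list.

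Of the 34 genes, 5 have a known role in flies that is named here, and 1 of these had an IDR summit. Beside this stood 10 of all 34 and 16.9% of all protein-coding genes, and no test was made. The tetraspanin gene lbm, which is not among the 34 and is described below, also has a known role and held 2 IDR summits. Of the 3 that act with Kuz, Tsp3A had the IDR summit shared with Seipin, while Tsp26A and Tsp86D had pooled summits at best ranks of 5321 and 6444. Tsp2A of the septate junction had a best pooled rank of 14201. Tsp42Ej, also called sunglasses, acts in lysosomal degradation of rhodopsin in photoreceptors and had a best pooled rank of 26110. Such ranks lie deep in the relaxed list, which by construction holds background as well as peaks.

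**Figure D3:**
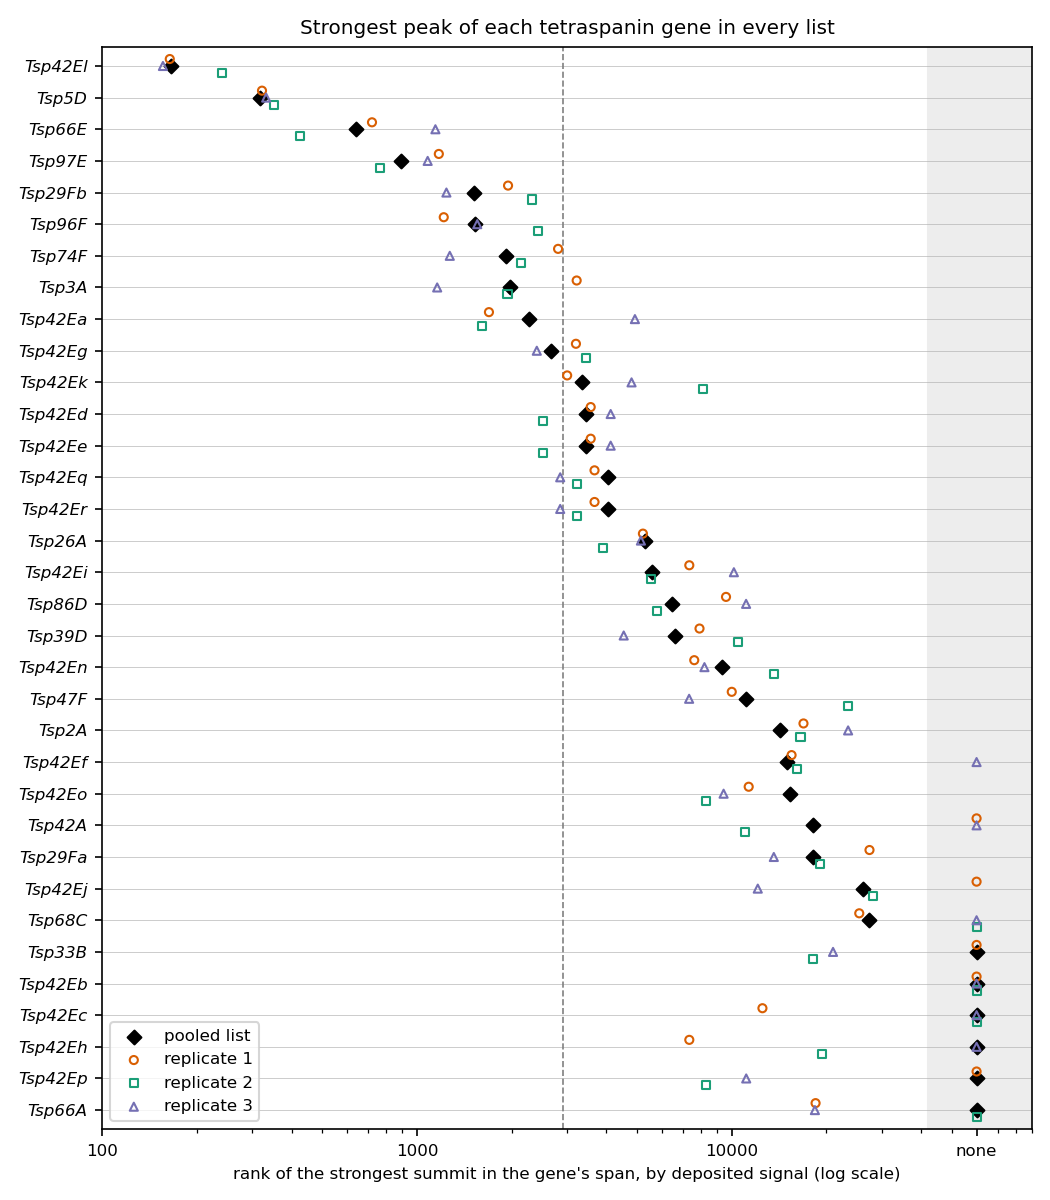
Rank by deposited signal (horizontal axis, log scale, 1 is the strongest) of the strongest summit in the span of each of the 34 tetraspanin genes, in the pooled list (black diamonds) and in replicates 1, 2 and 3 (open symbols); the dashed line marks rank 2919 and the grey field genes with no summit. Tsp42El and Tsp5D lie far to the left with closely grouped replicates, and 24 genes have their pooled summit to the right of the line or none.

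Many tetraspanin genes are neighbours. The Tsp42E cluster, defined as a run of genes with spans within 10 kb of each other, held 17 of the 34 in 75.4 kb at 2R:6990676-7066113. An IDR summit lay in 3 of the 17 (17.6%), against 7 of the 17 tetraspanin genes outside it (41.2%). The median gene length was 2181 bp in the cluster and 2354 bp outside. The longest gene was Tsp42Ea in the cluster, at 11584 bp, and Tsp66E outside, at 19567 bp. The part of gene length in the 2 shares was not tested. The cluster share was near the 17.7% of all protein-coding genes on arm 2R. Over the other arms an IDR summit was found in 1 of 5 tetraspanin genes on 2L, 2 of 4 on 3L, 2 of 3 on 3R and 2 of 3 on X, against 16.5%, 18.4%, 16.5% and 15.9% of all protein-coding genes there. The 2 tetraspanin genes of 2R outside the cluster, Tsp42A and Tsp47F, had none. The cluster held 5 IDR summits, or 6.63 per 100 kb, and 30 relaxed pooled summits. Of the 5, 3 were those of Tsp42Ea, Tsp42Eg and Tsp42El. The other two belonged to lbm (late bloomer), a tetraspanin gene of motor axons that acts in synapse formation and whose symbol does not match the rule. Its summits ranked 1718, 80 bp downstream of a TSS, and 2180, 218 bp upstream of a TSS. The replicate ranks were 3377, 885 and 3248 for the first and 2461, 3050 and 5224 for the second, so each was a leading peak in a single replicate. Tsp29Fa and Tsp29Fb form a smaller pair in 7.78 kb, where the only IDR summit was that of Tsp29Fb.

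**Figure D4:**
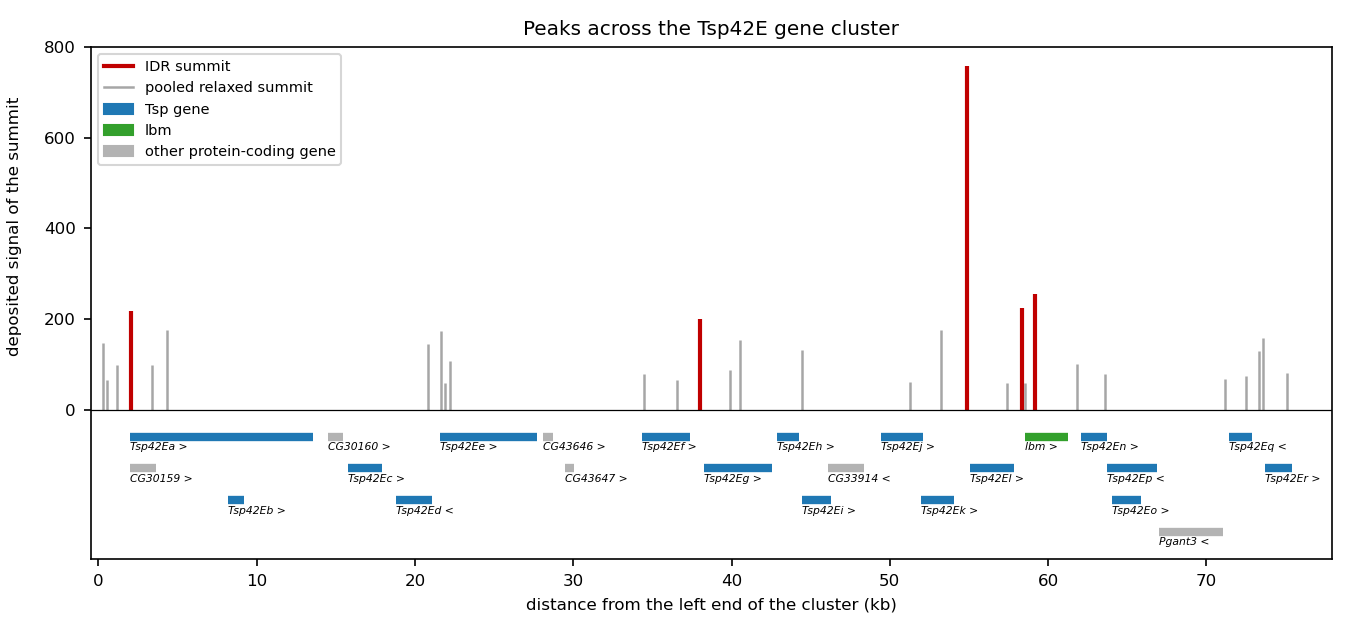
Deposited signal (vertical axis) of IDR summits (red) and relaxed pooled summits (grey) along the Tsp42E cluster, as distance from its left end in kb (horizontal axis), with the genes below and arrowheads for their strand. The Tsp42El summit, at 759, stands well above the other 4 IDR summits, which lie between 200 and 254.

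How the forkhead words at tetraspanin summits compared with all IDR summits depended on the window and on the peaks kept. Within 50 bp, any of the 4 words capitalised above lay at 2 of the 11 tetraspanin summits (18.2%), against 29.9% of all IDR summits. In windows of the same length 500 bp to either side, the words lay in 0 of 22 tetraspanin flanks and 16.5% of all flanks. Both tetraspanin summits with a word, at Tsp5D and Tsp66E, were among the 4 strongest. The best known word, GTAAACA, lay at 0 of the 11, against 8.12% of all IDR summits and 2.12% of all flanks. Within 100 bp the forkhead share was 45.5% at tetraspanin summits, against 44.6% of all IDR summits. Among the 1459 strongest IDR peaks it was 2 of 4 at tetraspanin summits, against 33.6% of those peaks. Without replicate 2 it was 28.6% at the 7 tetraspanin summits left, against 31.4% of all IDR summits kept in the same way. The share is coarse, since each of the 11 summits makes up 9.09% of it, and no test was made. Among the leading summits in tetraspanin spans the share was 4 of 10, 3 of 12 and 3 of 13 in replicates 1, 2 and 3, averaging 29.4% ± 9.27 (SD, n = 3). The forkhead share of all leading summits was not computed. A related set of words, made of ACAAACA, its variant ACAAATA and the ATAAACA and also ATAAATA of the first set, lay at 3 of the 11 (27.3%), against 30.5% of all IDR summits. A GATA word lay at 1 of the 11 (9.09%), in 5 of their 22 flanks (22.7%), and at 16.4% of all IDR summits. TATCGATA, the word of DREF, CAGGTAG, that of Zelda, and GAGAGAG, that of GAGA factor, lay at 0 of the 11, against 0.891%, 0.651% and 3.19% of all IDR summits. A match is a description of the sequence and not evidence of a bound site.

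**Figure D5:**
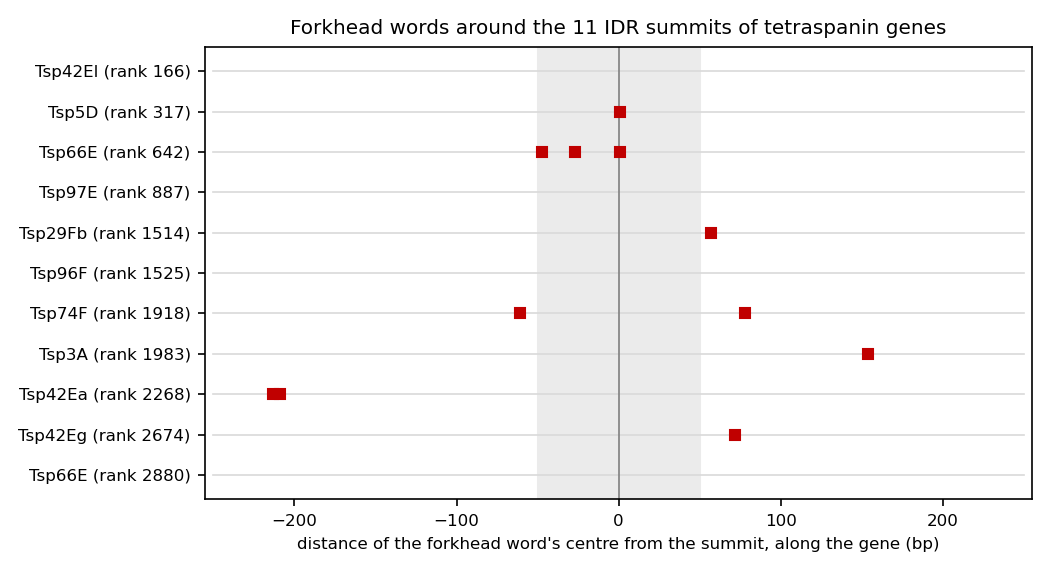
Distance of the centre of each forkhead word from the IDR summit in bp along the gene (horizontal axis, negative is upstream), for the 11 summits of tetraspanin genes in order of IDR rank; the grey field marks 50 bp to either side. Words lie in the field at Tsp5D and at the stronger Tsp66E summit, and 5 of the 11 summits have a word within 100 bp.

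Genes of known tetraspanin partners were read from a fixed list of 14, which also held lbm, a tetraspanin gene and not a partner. Of the 14, 6 had an IDR summit, lbm among them (42.9%, against 16.9% of all protein-coding genes). Their spans were mostly long, from 3258 bp for Ssk to 91273 bp for kuz, and 12 of the 14 exceeded the tetraspanin median of 4211.5 bp. Of these 12, 6 had an IDR summit, beside 25.5% of all protein-coding genes with spans over that median, and no test was made. Among Notch and its proteases, kuz had 2 (best rank 907, nearest to the TSS of B4), N had 1 (rank 362, in an intron and nearest to the TSS of CG18508) and Tace had none. The spans were 91273 bp for kuz and 39352 bp for N. The smooth septate junction genes mesh, Ssk and hoka, partners of Tsp2A, had none, as did Tsp2A itself. Of the 7 integrin subunit genes, scb had 3 summits (best rank 257, 129 bp upstream of its TSS), mew, with a span of 46082 bp, had 3 (best rank 901, in an intron and nearest to the TSS of CG32639) and mys had 1 (rank 2899, 177 bp downstream of its TSS). Itgbn, if, ItgaPS4 and ItgaPS5 had none, although the span of if was 33246 bp.

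The proteins encoded are of similar size, with or without a peak at the gene. The longest coding sequence of each gene ran from 217 to 308 codons with a median of 251.5 for the 10 genes with an IDR summit, and from 211 to 362 codons with a median of 231.5 for the 24 without, so the ranges overlapped.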

How the data were processed

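ChIP-seq peak lists of 3 biological replicates were used as deposited, on dm6 and in narrowPeak format per the deposited file descriptions. The chromatin had been sonicated to 200 to 800 bp, per the labels. A free-text label calls the samples input controls, while the assay and antibody labels mark them as immunoprecipitations, and the second reading was followed. The age is that of the source name, 8 to 14 hours, because the age label itself gives no readable hours. The same descriptions state that the authors called 30000 relaxed peaks per replicate and on the pool, with 1 input alignment for all, and made the IDR list from them. Any fault of that input therefore enters every list. The IDR peaks were the 2919 strongest of the pooled list by the authors' signal value, and 2784 had q under 0.05. The deposited −log10 q-value of each peak was used only at that threshold. Read numbers, the aligner, the caller with its settings and the IDR cutoff were not given in the sources used here, and depth is unknown. Whether the replicates are separate collections beyond the label is not stated, and no p-value was computed.

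Gene models were those of Ensembl release 115 and sequences came from the RefSeq release 6 assembly, whose arms contain every peak. Distances were computed from the nearest TSS of any transcript. Shares are given as mean ± SD over 3 replicates. Python 3.11.15 with NumPy 2.4.6, pandas 2.3.3 and matplotlib 3.10.9 was used, and the counting of summits and words was tested on simulated data. The genes and lists were chosen with earlier results of these data known. Every tetraspanin gene is named, those with an IDR summit in full, together with genes whose TSS is nearest to a described summit. A fixed list of partners and lbm is named too, of which 1 listed name was not analysed here. A planned comparison of protein sequences was not analysed here. Alternatives were the peak list, the span, the rule for assigning a summit, the promoter distance, the words and their window, the number of leading peaks, and leaving out each replicate.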

Additional observations from a re-analysis of the deposited data

How the results depend on the processing

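Of 51 alternative values for 7 results, 30 lay near the reported value, within 1.5 times for counts of genes or summits and within 1 SD between replicates for the others, and 21 moved further. None had a test. Counts inside that tolerance still differ, as with 5000 bp upstream, which gave 14 genes (41.2%, against 22.6% of all protein-coding genes) and 15 summits. With only the stronger IDR peaks, down to rank 1459, the 10 genes and 11 summits became 4 genes and 4 summits, the density 2.28 per 100 kb and the forkhead share 50%. Under the same filter 11.8% of tetraspanin genes and 9.82% of all protein-coding genes held a summit. The density was 1.3 per 100 kb for all protein-coding genes, and the forkhead share of all those peaks was 33.6%. Without the upstream part of the span there were 5 genes, 6 summits and 4.75 summits per 100 kb, against a share of 14.7% of tetraspanin genes and 9.5% of all protein-coding genes. Spans within 1000 bp of a TSS gave 11.4 summits per 100 kb and 8 genes (23.5%, against 11.9% of all protein-coding genes). That density was not computed for all protein-coding genes. Summits with q under 0.05 had their own gene's TSS nearest in 80.0%, against 72.7% as reported. Calling 1000 bp promoter gave 72.7%. A window of 100 bp gave a forkhead share of 45.5%, against 44.6% of all IDR summits, and GTAAACA alone gave 0%. With fewer leading peaks per replicate, down to rank 1459, the mean was 5.33 genes, and the same was not computed for all protein-coding genes.

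Leaving out a replicate, an IDR summit was kept where leading peaks of both others overlapped it. This left 7 to 8 genes, 7 to 8 summits, a promoter share of 42.9 to 50%, a forkhead share of 25.0 to 28.6% and, in alternatives chosen after seeing the data, 3.99 to 4.56 summits per 100 kb and 75 to 87.5% with their own TSS nearest. Under the same filter all protein-coding genes had 1.68 to 1.81 summits per 100 kb, and the forkhead share of all IDR summits kept was 31.4 to 31.9%. The share of all protein-coding genes with a kept summit was not computed. The mean of tetraspanin genes with a leading summit was 9.5 to 11. Tsp42El, Tsp5D, Tsp66E, Tsp97E, Tsp29Fb, Tsp96F and Tsp74F remained in each case. This was fixed in advance, since leading peaks of all 3 replicates overlapped an IDR peak of each. The IDR list itself still came from all 3 replicates. Tsp3A was kept without replicate 1 alone, Tsp42Ea without replicate 3 alone, and Tsp42Eg in none. The filter asks for 2 replicates where the IDR list does not, which by its construction can only lower counts. No paired analysis was possible because there is only 1 group. Unknown depth limits all statements on genes without a peak.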
